A study of Bactrocera dorsalis with 4 samples.

Results

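The known microRNAs (miRNAs) of the ovaries were compared with those of the rest of the female body in the oriental fruit fly Bactrocera dorsalis. The members were the miRNA names that the deposited lists of these 2 libraries give with a miRBase status of Yes or Diff, 2 values that the sources used here do not define. Of the 163 names that the 4 libraries of the series gave in this way, 145 were listed in the ovaries, in the female body or in both. The flies were reared on an artificial diet, separated by sex as newly emerged virgins and dissected as mature adults at 12 days, so the ovaries were those of females kept apart from males. Each tissue gave 1 library, called females for the body without ovaries, ovaries, males for the body without testes, and testes. How many flies were pooled for a library is not given in the sources used here. The lists hold names, sequences and positions but no amounts, so every comparison is between what was listed and what was not, without a replicate and without a test. A miRNA that is missing from a list is not a miRNA at a level of 0. The read table of the study gives the ovary library fewer clean reads than the female body library, and the part of this in the differences described here was not tested.

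A miRNA is cut from a folded precursor, the hairpin, whose left and right sides give the 5p and the 3p arm. One arm usually enters an Argonaute protein and guides it to messenger RNAs, which it recognises mostly through the seed, bases 2 to 8 of the miRNA, while the other arm is mostly degraded. The ends of a mature miRNA can vary between molecules, and a shift of the 5′ end or a changed base within the seed alters the set of transcripts that the seed matches. In insects, miRNAs act in the ovary in germline stem cells, in follicle cells and in the egg, and others are best known from neurons, muscle and fat body.

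Some sequences in which the lists differ are given first, from 5′ to 3′ with the seed in capitals and with T for U as deposited. The first set holds miRNAs of the female body list that had no entry of the same seed, hairpin or number in the ovary list, with both arms of miR-929 and 1 of the 2 forms of miR-965-3p:
miR-315-5p: tTTTGATTgttgctcagaaagcc
miR-87: tTGAGCAAaatttcaggtgtgt
miR-929-5p: aAATTGACtctagtagggagt
miR-929-3p: cTCCCTAAcggagtcagattg
miR-965-3p: cGTATAGCttttccccttt
miR-iab-8-5p: tTACGTATactgaaggtat
The second set holds miRNAs of the ovary list that the female body list did not have. Of these, miR-279-3p and miR-9c-3p were on a contig of B. dorsalis, and the others were placed only on chromosome arms named as in Drosophila:
miR-279-3p: tGACTAGTtccacactcatt
miR-9c-3p: tAAAGCTTttataccaaagct
miR-959-3p: tTGGCATCgggggtattatg
miR-961-5p: tTTGATCAccagtaactgagat
miR-973-3p: tCTGTTCAttctccgacacaag
miR-982-5p: tCCTGGACaaatatgaagtaaa
miR-9369-5p: aGCGAGAGggtattatgtattc
The third set holds names in both lists for which the ovary list had a further form, with the shared form before the form of the ovaries alone:
miR-318-3p, both lists: tCACTGGGctttgtttatctca
miR-318-3p, ovaries: tCAGTGGGctttgtttatctga
miR-79, both lists: tAAAGCTAgattaccaaagcat
miR-79, ovaries: aTAAAGCTagattaccaaagcata
miR-4-3p, both lists: aTAAAGCTagacaaccattg
miR-4-3p, ovaries: aTAAAGCTagacaaccata

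Most known miRNAs were common to both tissues. The female body list held 137 names and the ovary list 122, and 114 names were in both. Of the ovary names, 93.4% were also in the female body list, and 83.2% of the female body names were also in the ovary list. The female body alone had 23 names, which is 15.9% of the 145, and the ovaries alone had 8, which is 5.52%. The muscle miRNA miR-1 and the neuronal miRNA miR-124 were in both lists, as were miR-989-3p, which acts in the border cells of the Drosophila ovary, miR-184-3p, which is needed for Drosophila oogenesis, and miR-318-3p and miR-994-5p, which share a cluster.

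A form is a distinct sequence, and among Yes and Diff entries forms separated the tissues more than names did. With Yes entries only they did not, since names and forms both gave 47 shared, 5 in the female body alone and 3 in the ovaries alone. The lists held 191 forms for the female body and 157 for the ovaries, of which 142 were in both. The female body alone had 49 forms, 23.8% of the 206 forms of either list, and the ovaries alone had 15, 7.28%. As a share of each list, 90.4% of the ovary forms and 74.3% of the female body forms were shared. By seed, 101 were in both lists, 32 in the female body alone and 10 in the ovaries alone. By hairpin, taken from the name without its arm, the numbers were 82, 12 and 5, and by family, taken from the number in the name, 76, 9 and 5. All 142 shared forms were placed at the same genome positions in both lists.

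**Figure D1:**
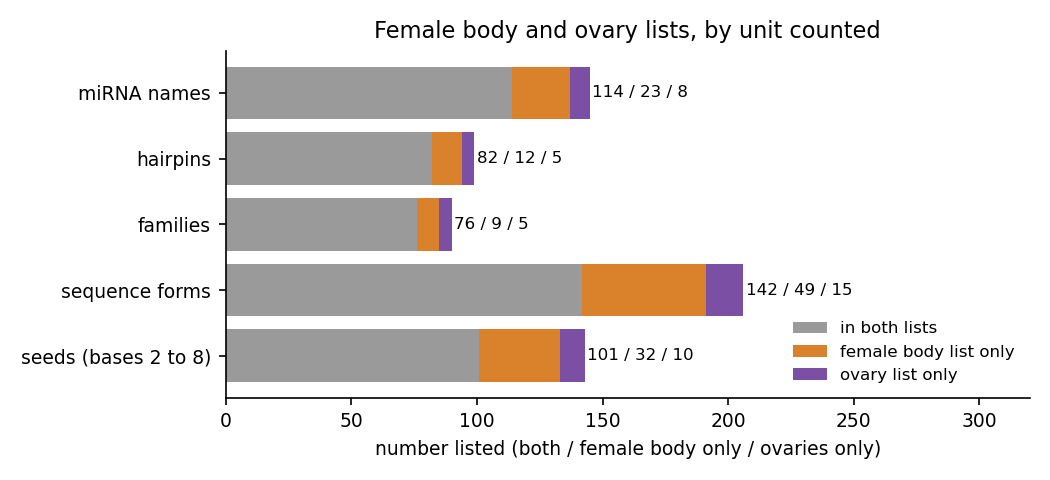
Bars count the miRNA names, hairpins, families, sequence forms and seeds (bases 2 to 8) in both lists (grey), in the female body list only (orange) and in the ovary list only (purple), with 1 library a side. The female body had more that the ovaries lacked than the reverse by every unit shown, from 9 against 5 families to 49 against 15 forms.

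The 23 names of the female body alone fell into those with and those without a relative in the ovary list. For 9 of them, the other arm of the hairpin was in the ovary list, and these are described with the arms. A further 4 had their seed in the ovary list, and 8 had no entry there with the same seed, hairpin or family. The other 2, miR-210-5p and miR-263b, had a member of their family there. The 8 were miR-315-5p, miR-87, miR-929-5p, miR-929-3p, miR-965-3p, miR-983-5p, miR-984-5p and miR-iab-8-5p. Of these, miR-983 had an entry of status New, mir-983-1-p3, in both lists, which the comparison did not use. In Drosophila, miR-315 activates Wingless signalling, miR-87 acts in the regrowth of dendrites, and miR-965 controls the histoblasts, the cells that build the adult abdomen. miR-929 was the hairpin with both arms in the female body list and neither in the ovary list, on the minus strand of contig JFBF01000017.1 from 1951097 to 1951184. Its 5p arm was also listed in males and testes and its 3p arm in males.

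miR-210, which acts in photoreceptors and the clock neurons of Drosophila, was in the female body list under 3 names and in the ovary list under 1. The form shared by both lists, miR-210a, had 21 bases, and the form of the female body alone, named miR-210, added 3 bases at its 3′ end:
miR-210a, both lists: cTTGTGCGtgtgacagcggct
miR-210, female body: cTTGTGCGtgtgacagcggctatg
miR-210-5p, female body: aGCTGCTGgccactgcacaagat
The seed of the longer form was therefore in the ovary list already. miR-210-5p was placed at the same interval as miR-210a, on the minus strand of contig JFBF01000084.1 from 612915 to 612995, so this hairpin had both arms in the female body and the miR-210a arm alone in the ovaries. Both names of the female body alone were also listed in males and in neither gonad. Counted by hairpin names, miR-210 and miR-210a stand apart, and the count of 9 hairpins with the other arm in the ovary list leaves this one out.

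miR-307 differed from a shared miRNA by its first base. The female body form miR-307 and the shared form miR-307a-3p were aligned over 21 bases with the single difference T1C, counted from 1 at the 5′ end with the base of miR-307a-3p first:
miR-307a-3p, both lists: tCACAACCtccttgagtgagc
miR-307, female body: cCACAACCtccttgagtgagc
The seed was thus the same. The intervals of both overlapped on the minus strand of contig JFBF01000245.1, from 68359 to 68486 for miR-307 and from 68426 to 68508 for miR-307a-3p. miR-307 was in neither of the male libraries. The other names with a seed in the ovary list were miR-310-3p, with the seed of miR-311-3p, miR-312-3p and miR-92b-3p, and miR-960-5p, with the seed of miR-12-5p. miR-310, miR-311 and miR-312 form a cluster in Drosophila, and miR-310-3p was listed in testes besides the female body.

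miR-iab-8-5p lay opposite to a shared miRNA. In Drosophila, miR-iab-4 and miR-iab-8 come from opposite strands of the same stretch of the Hox cluster and repress Hox genes. In these lists, miR-iab-8-5p was on the plus strand of contig JFBF01000063.1 from 390044 to 390122, and miR-iab-4-5p on the minus strand from 390040 to 390113, so the intervals overlapped by 70 bases. miR-iab-4-5p was in both female lists, and miR-iab-8-5p in the female body, males and testes but not in the ovaries:
miR-iab-4-5p, both lists: aCGTATACtgaatgtatcctga
miR-iab-8-5p, female body: tTACGTATactgaaggtat
The mature sequences, aligned over 17 bases with miR-iab-8-5p starting 2 bases earlier, differed by T13G, counted in miR-iab-4-5p. This was the only place where a name of 1 of the 2 lists overlapped a listed miRNA on the opposite strand.

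miR-263b protects sense organs from cell death in Drosophila together with miR-263a. It was in the female body, males and testes, on the minus strand of contig JFBF01000044.1 from 704216 to 704279, while miR-263a was in both female lists. miR-263b and the nearest ovary form, that of miR-263a, differed by A1C, A2T and A12G over 21 bases, so their seeds differed:
miR-263a, both lists: aATGGCACtggaagaattcac
miR-263b, female body: cTTGGCACtgggagaattcaca
Of the 24 forms behind the 23 names, 2 matched an ovary form with at most 2 mismatches over at least 18 bases, those of miR-210 and miR-307. None of the 9 forms behind the 8 ovary names had such a match in the female body list.

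The 8 names of the ovaries alone were miR-279-3p, miR-5-3p, miR-9369-5p, miR-959-3p, miR-961-5p, miR-973-3p, miR-982-5p and miR-9c-3p. For 3 of them (miR-5, miR-959 and miR-9c), the 5p arm of the hairpin was in the female body list. The other 5 had no entry there with the same seed, hairpin or family, the last taken from the number in the name. The seed of miR-279-3p differed from that of miR-996-3p, which was in both lists, only at base 8. Of the 2 forms of miR-5-3p, the one of 21 bases had the seed of the miR-2 group, and the one of 19 bases, placed in an interval of 22 bases on a contig, had another seed. In the female body list, miR-308-3p, miR-13b-3p, miR-2a-3p, miR-11-3p, miR-6-3p, miR-2b-3p and miR-13a-3p carried the seed of the miR-2 group. The members of this group match the K box of Notch pathway and cell death transcripts in Drosophila. miR-5 belongs to the miR-309 cluster, whose members clear maternal transcripts from the Drosophila embryo.

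miR-279-3p prevents the formation of extra CO2-sensing neurons in Drosophila. It was in the ovaries, males and testes and not in the female body, on the minus strand of contig JFBF01001543.1 from 9090 to 9175. miR-9c-3p was in both gonads and in neither body, on the minus strand of contig JFBF01000027.1 from 1324087 to 1324172. Within 10000 bases of it on the same strand, 6 further names were listed, miR-306-5p, miR-79, miR-9b, miR-9b-3p, miR-9b-5p and miR-9c-5p, and all 6 were in both female lists. miR-100-3p had the same kind of surroundings for the female body. It lay on the plus strand of contig JFBF01000010.1 from 2862103 to 2862188, and the 6 names near it, both arms of let-7, both arms of miR-125, miR-100 and miR-100-5p, were in both lists. These miRNAs are cut from 1 transcript in Drosophila, the let-7 complex, which acts in the passage to the adult.

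The names of the other libraries were not used in choosing the members. Of the 114 shared names, 110 (96.5%) were also listed in males and 108 (94.7%) in testes. Of the 23 names of the female body alone, 14 (60.9%, 95% exact interval 38.5% to 80.3%) were in males and 11 (47.8%, 26.8% to 69.4%) in testes, and 8 were in neither. The 8 were miR-13a-5p, miR-307, miR-31a-3p, miR-31b-3p, miR-959-5p, miR-960-5p, miR-984-5p and miR-987-3p. Of the 8 names of the ovaries alone, 5 (62.5%, 24.5% to 91.5%) were in testes and 2 (25.0%, 3.2% to 65.1%) in males. miR-973-3p and miR-982-5p were in the ovary list only. The intervals are Clopper-Pearson intervals of the listed names and cover counting error only. They overlap between the classes of 23 and 8, so neither class was told from the other by its share in males or in testes.

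**Figure D2:**
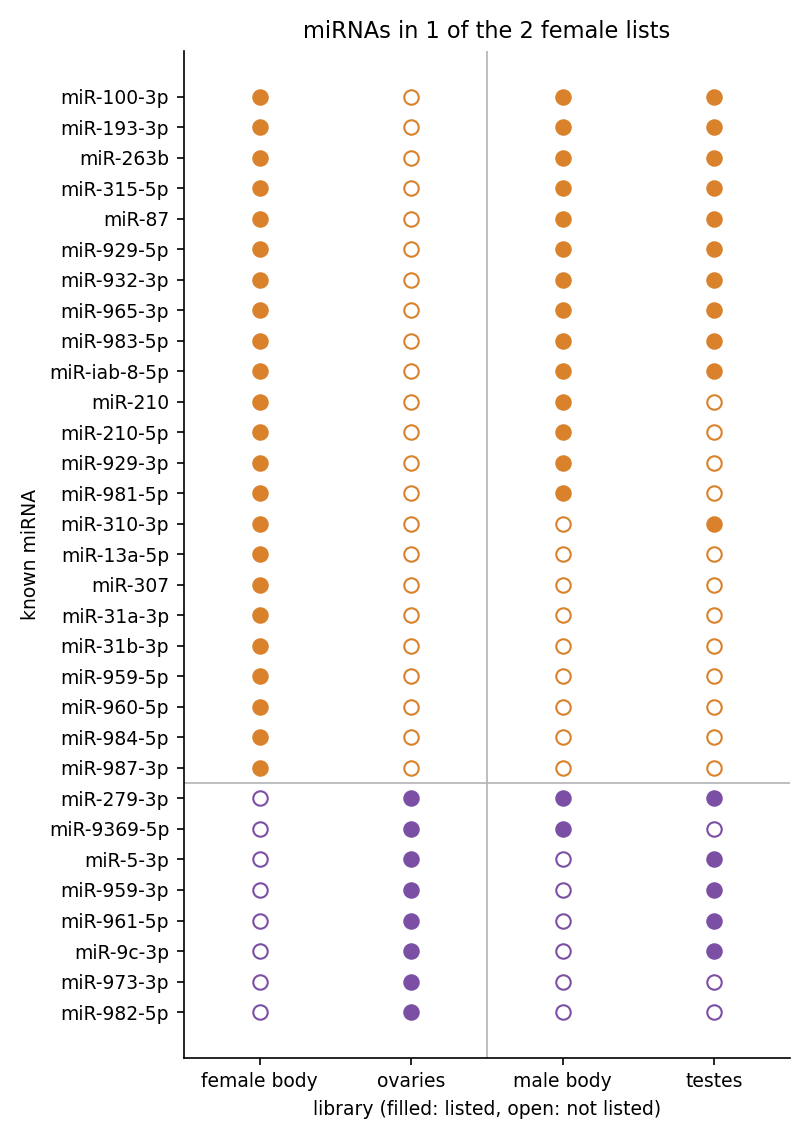
Each row is a miRNA name that was in 1 of the 2 female lists, and each column a library, with filled circles for listed and open circles for not listed. Of the 23 names of the female body (orange), 14 were also in males and 11 in testes. Of the 8 names of the ovaries (purple), 5 were also in testes and 2 in males.

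Listing in both female libraries and in no male library was rare. Of the 142 shared forms, 131 were in males and testes as well, 4 in males alone, 3 in testes alone and 4 in neither. The 4 were forms of miR-6-3p, miR-989-3p, miR-124-3p and miR-33-5p. miR-6 belongs to the miR-309 cluster, and miR-33 acts in lipid metabolism. For 3 of the 4 the sequences on contigs were as follows:
miR-989-3p: tGTGATGTgacgtagtgg
miR-124-3p: tAAGGCACgcggtgaatgccaaa
miR-33-5p: tTGCATTGtagtcgcattgt
miR-989-3p and miR-6-3p had further forms that were listed in the male libraries, and miR-124 was listed in all 4 libraries in a form of 20 bases that begins the 23 bases shown.

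Both arms were listed for more hairpins of the female body among Yes and Diff entries, and for 8 hairpins in each list among Yes entries alone. Names with an arm gave 87 hairpins for the female body and 83 for the ovaries. Both arms were listed for 36 and 29 of them, and 27 hairpins had both arms in both lists. In males and testes, 35 of 89 and 36 of 87 hairpins had both arms. By these names, the same single arm was in both lists for 26 hairpins with the 3p arm and 14 with the 5p arm. Names without an arm were not counted. For miR-276a, 1 of the 14, both lists also had a second sequence at the interval of the 5p arm, under a name without an arm. For 8 hairpins, both arms were in the female body and 1 arm in the ovaries, and for miR-5 and miR-9c both arms were in the ovaries and the 5p arm in the female body.

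Of these 8 hairpins, 6 lacked the 3p arm in the ovary list and 2 the 5p arm. The ovaries had the 5p arm alone for miR-100, miR-193, miR-31a, miR-31b, miR-932 and miR-987, and the 3p arm alone for miR-13a and miR-981. In the ovary list, the 5p arms of miR-31a and miR-31b were the same sequence under both names. In all 8 hairpins but miR-13a, both arms were placed at the same interval in the female body list. For miR-31a this was on the arm named 2R, with a 5p form that the ovary list lacked. For miR-932, which has been linked to memory in the honey bee, it was on the minus strand of contig JFBF01000243.1 from 294711 to 294801. The arms were as follows, with the arm of both lists first:
miR-932-5p: tCAATTCCgtagtgcattgcagt
miR-932-3p: tGCAAGCAttgtggaagtgat
miR-981-3p: tTCGTTGTcgacgaaacctgca
miR-981-5p: cGGGTTTCgtaagcagcgggct
miR-193-3p and miR-932-3p were also in males and testes, and miR-981-5p was in males. miR-31a-3p, miR-31b-3p, miR-987-3p and miR-13a-5p were in the female body list only. Over all names, 10 of the female body alone were 5p arms, 9 were 3p arms and 4 had no arm, against 3 and 5 with an arm in the ovaries alone and 49, 55 and 10 among the shared names.

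miR-959 was the hairpin listed by opposite arms. The 5p arm was in the female body list and the 3p arm in the ovary list, at the same interval on the plus strand of the arm named 2L, from 5640940 to 5641037:
miR-959-5p, female body: cTTAGTACtcgggttgataaa
miR-959-3p, ovaries: tTGGCATCgggggtattatg
miR-959-3p was in testes as well, and miR-959-5p was in no further library. Chromosome arm names such as 2L, 3R and X are those of Drosophila melanogaster and not of the contigs of B. dorsalis, and the build behind them is not given in the sources used here.

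**Figure D3:**
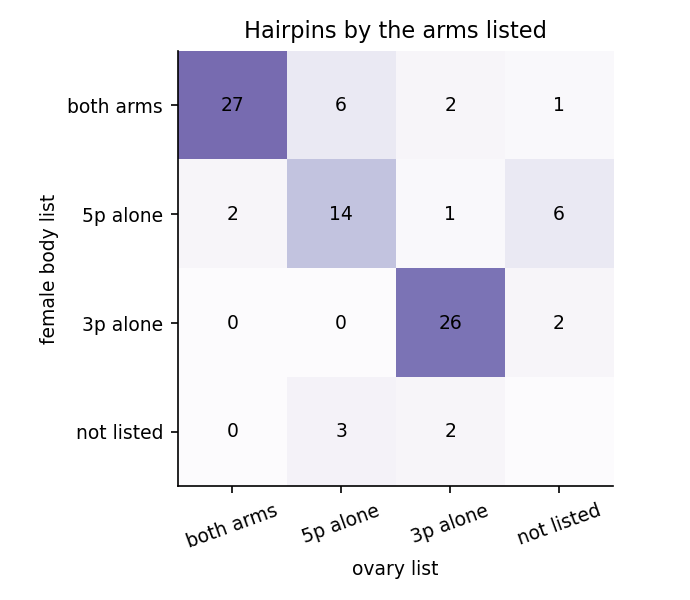
Cells count hairpins by the arms in the female body list (rows) and in the ovary list (columns), with darker cells for more hairpins. Names without an arm are not counted. The diagonal holds the 27, 14 and 26 hairpins with the same arms in both lists, and 8 hairpins had both arms in the female body and 1 in the ovaries.

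The names next to miR-959 were also divided between the lists. In Drosophila, miR-959, miR-960 and miR-961 stand in a cluster expressed in the testis, and miR-982, miR-983 and miR-984 and the group of miR-973 and miR-976 stand in clusters on the X chromosome. In the lists, miR-960-5p (from 5641063 to 5641155 on 2L) was in the female body and miR-961-5p (from 5641191 to 5641279) in the ovaries, 128 bases apart by their starts. On the minus strand of X, miR-982-5p (from 4259839 to 4259931) was in the ovaries, and miR-983-5p (from 4262516 to 4262614) and miR-984-5p (from 4262679 to 4262768) were in the female body. On the plus strand of X, miR-9369-5p (from 19445351 to 19445412) and miR-973-3p (from 19445561 to 19445661) were in the ovaries, 210 bases apart by their starts, and miR-976-3p (from 19452928 to 19453024) was in both lists. The group of testis clusters was drawn up without miR-9369. Of its 9 names, 1 was shared, 4 were in the female body alone and 4 in the ovaries alone. The group thus held 4 of the 23 names of the female body alone and 4 of the 8 of the ovaries alone. miR-9369-5p, beside miR-973-3p, was a further name of the ovaries alone. With entries of status New, the miR-983 hairpin was in both lists, through mir-983-1-p3. Of the 8 names of the group in 1 list, miR-983-5p was also in males and testes. miR-959-3p and miR-961-5p were also in testes, and the other 5 were in no male library. All 9 were placed under Drosophila arm names, and none on a contig.

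The groups of miRNAs known from Drosophila were described by counts, to be read beside the 15.9% and 5.52% over all names. Of 39 names of the nervous system and sense organs, 28 were in both lists, 9 in the female body alone (23.1%) and 2 in the ovaries alone (5.1%). The 9 were miR-193-3p, miR-210, miR-210-5p, miR-263b, miR-315-5p, miR-87, miR-929-3p, miR-929-5p and miR-932-3p, and the 2 were miR-279-3p and miR-9c-3p. The female body list held 45 forms of this group and the ovary list 34. By hairpin, with miR-210a read as miR-210, the female body list held 22 of the 23 and the ovary list 19. Of 15 names of the ovary and egg group, 13 were in both lists, with miR-310-3p in the female body alone and miR-5-3p in the ovaries alone (6.7% each). Here the ovary list held more forms, 24 against 20. The hairpins miR-3, miR-286, miR-313, miR-92a and bantam of this group were in neither list.

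The miR-2 seed group had 11 of its 13 names in both lists, miR-13a-5p in the female body alone and miR-5-3p in the ovaries alone. Summed over names, it had 24 forms in the ovaries against 20 in the female body. The 24 count 1 ovary sequence under both miR-2a-3p and miR-2b-3p. The metabolism and growth group, with miR-8, miR-14, miR-278 and others that act in fat body and insulin signalling, had all 15 names in both lists, in 22 forms for the female body and 16 for the ovaries. Both muscle names, the arms of miR-1, were in both lists, with 10 forms against 3, and miR-133 was not listed. Of the let-7 complex, 6 of 7 names were in both lists, and of the Hox region, 5 of 6. No mirtron of the 10 looked for was in either list. These are counts of small lists, and none of the lists was tested.

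**Figure D4:**
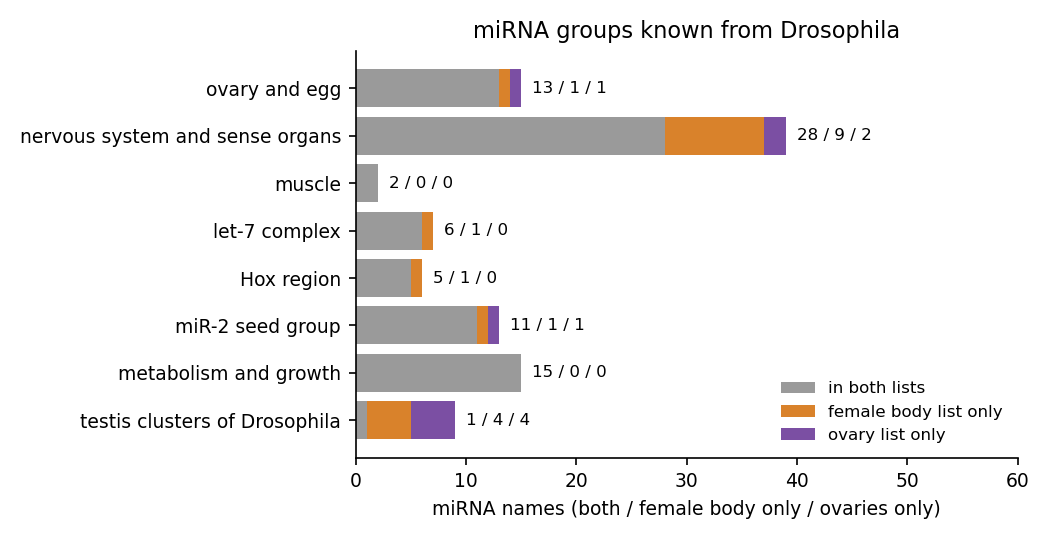
Bars count the miRNA names of each group known from Drosophila in both lists (grey), in the female body list only (orange) and in the ovary list only (purple). The nervous system group had 9 names in the female body alone, and the testis clusters, drawn up without miR-9369, had 4 on each side and 1 shared.

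Among the shared names, 91 of 114 had the same forms in both lists and 23 had different ones. None lacked a common form. The female body had more forms for 16 names and the ovaries for 7, and for 12 of the 23 the forms of both lists differed in their seeds, for miR-10-3p only by an undetermined base. The female body had 40 names with more than 1 form and the ovaries 31.

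The extra forms of the female body were 25, under 16 names. Against the nearest shared form, 1 had no mismatch, 15 had 1 and 9 had 2. The 5′ end was the same in 20 and shifted in 5, and the seed differed in 14, among them a form of miR-10-3p whose only difference was an undetermined base in the seed. In no case was the position of the extra form listed in the ovaries. On a contig of B. dorsalis stood 13 of the 25, and the others stood only under Drosophila arm names. Of the 25, 22 were also in males and 7 in testes, so most were common to the bodies of both sexes. Of the 142 shared forms, 135 were in males and 134 in testes.

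miR-1-3p and miR-375-3p accounted for 11 of the 25. miR-1-3p, the muscle miRNA, had 9 forms in the female body and 2 in the ovaries, and it had 8 in males and 2 in testes. The 7 extra forms were 18 to 21 bases long, and 6 of them had at most 20 bases. Their intervals spanned 25 to 105 bases, with 4 forms placed in intervals under 60 bases. The shared form and extra forms with a changed seed, a shifted start and a changed base after the seed were:
miR-1-3p, both lists: tGGAATGTaaagaagtatggag
miR-1-3p, female body, A4G and A21T: tGGGATGTaaagaagtatggt
miR-1-3p, female body, G7A: aATATAAAgaagtatggag
miR-1-3p, female body, A11C: tGGAATGTaacgaagtat
Positions in these changes are counted in the shared form. G7A stood in a form that started 3 bases later, and of the 3 extra forms shown, those with A4G and G7A were also in males and the one with A11C in neither male library.

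miR-375-3p, first described in pancreatic islets of mammals, had 5 forms in the female body and 1 in the ovaries. Changes in the seed were G4T in a form of 22 bases and in one of 19 bases, and G8T in a form of 20 bases. The form of 22 bases was placed in an interval of only 30 bases. That of 19 bases was placed in intervals of 42 and 84 bases, and that of 20 bases in intervals of 20 and 78 bases. The shared form and the forms of 22 and 20 bases were:
miR-375-3p, both lists: tTTGTTCGtttggcttaagtt
miR-375-3p, female body, G4T: tTTTTTCGtttggcttaagttt
miR-375-3p, female body, G8T: tTTGTTCTtttggcttaagt
The other names had 1 extra form each. Among them were a form of miR-317-3p with A8C and T21A and a form of miR-1000-5p with T7G and A19C. A form of miR-10-3p had 1 base deposited as N, the only such base in either list. Each of these forms was placed only on the arm named 3R, and the nearest shared form on a contig.

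The extra forms of the ovaries were 6, under 7 names, since 1 form carried the names miR-2a-3p and miR-2b-3p. Of the 6, 4 were on a contig. The forms printed near the start show the first 3. miR-318-3p of the ovaries differed from the shared form by C4G and C21G, with C4G in the seed, and was placed on the plus strand of 3R from 6234024 to 6234091, where the shared form was on contig JFBF01000147.1. The shared form had the seed that miR-309-3p had in both lists, and the form of the ovaries did not. miR-79 of the ovaries started 1 base earlier and was 2 bases longer, without a mismatch. Its seed was that of miR-4-3p, and in Drosophila the miRNAs with this seed match the Brd box of Notch pathway transcripts. The form was also listed in testes. miR-4-3p of the ovaries differed by T19A at the same seed and was placed in an interval of 28 bases.

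miR-2a was listed at a further hairpin position in the ovaries. On the minus strand of contig JFBF01000002.1 from 2204580 to 2204646, the ovary list had both arms, while the female body list had neither at this place:
miR-2a-5p, ovaries: tCTCACAAagtggttgtgaaatg
miR-2a-3p, ovaries: tATCACAGccagctttgaggagctt
The 3p form had 25 bases, 3 more than the shared form of miR-2b-3p that it extended without a mismatch, and the same seed. The same sequence was listed as miR-2b-3p on this strand from 2205076 to 2205196, where the female body list had a miR-2a-5p form. The 5p form differed from the nearest shared miR-2a-5p by C1T, T6C, C7A and T20A. Both forms were also in testes, and the 3p form in males. miR-2a-3p had 4 forms in the ovaries and 3 in the female body, the highest number in the ovary list. The forms of miR-318-3p, miR-309-3p and miR-4-3p were in neither male library.

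**Figure D5:**
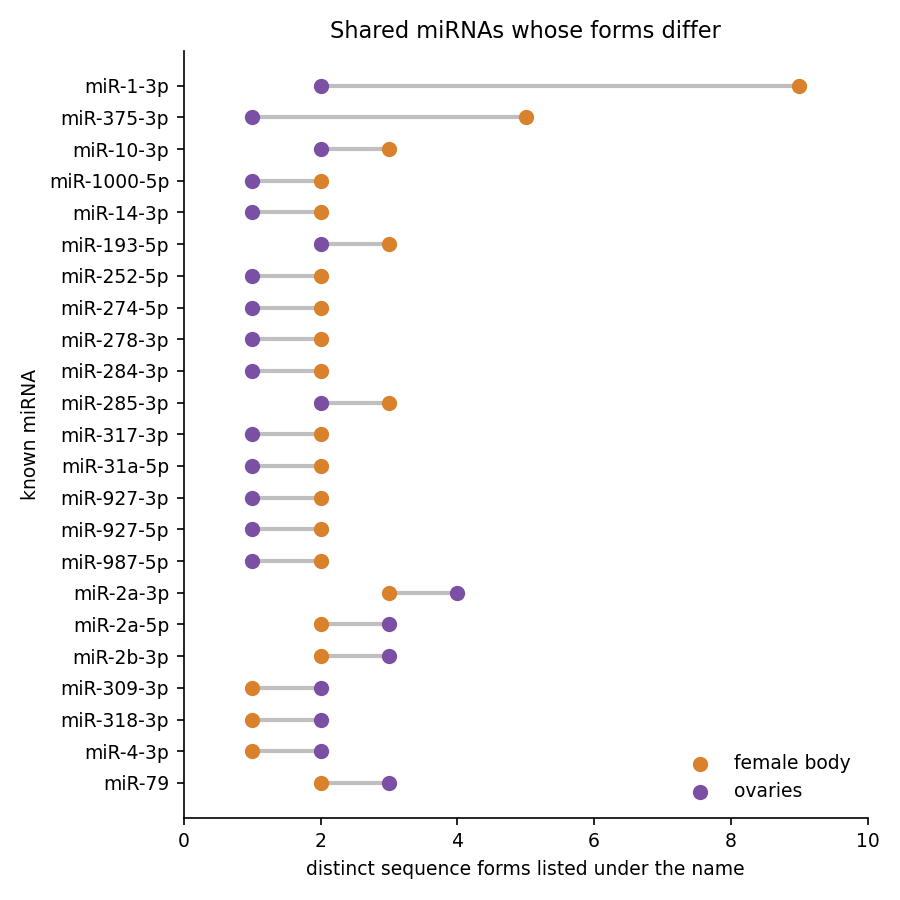
Points give the number of sequence forms under each shared name whose forms differ, in the female body list (orange) and the ovary list (purple). miR-1-3p had 9 against 2 forms and miR-375-3p 5 against 1, and 7 names had more forms in the ovaries.

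The forms of 1 list were set beside the shared forms by length, first base and placement. Of the shared forms, 83.1% (95% exact interval 75.9% to 88.9%) had 21 to 23 bases, against 67.3% (52.5% to 80.1%) of the female body alone and 9 of 15 (32.3% to 83.7%) of the ovaries alone. The interval of the shared forms overlapped both others, and with 1 vote per name the shares of shared forms and of the female body alone were 85.1% and 78.6%. Forms of 18 to 20 bases made up 13.4%, 30.6% and 26.7%. A T at the 5′ end was found in 54.9% (46.4% to 63.3%), 49.0% (34.4% to 63.7%) and 66.7% (38.4% to 88.2%). Of the shared forms, 82.4% (75.1% to 88.3%) were on a contig of B. dorsalis, against 61.2% (46.2% to 74.8%) and 46.7% (21.3% to 73.4%), and the status Yes was held by 47 of 142, 5 of 49 and 3 of 15. Intervals under 40 bases, shorter than the usual hairpin, were found for 1 of 142 shared forms, 8 of 49 of the female body and 2 of 15 of the ovaries. For placement on a contig, the exact interval of the shared forms lay above both others. For status Yes (25.4% to 41.5% against 3.4% to 22.2%) it lay above that of the female body alone. For intervals under 40 bases (0.0% to 3.9% against 7.3% to 29.7%) it lay below it. In both it overlapped that of the ovaries alone. The intervals for the female body alone and the ovaries alone overlapped for each of these shares that has one. Forms under 1 name share their source and are not independent. Forms of the female body alone were also in males in 75.5% and in testes in 38.8%, and those of the ovaries alone in 3 of 15 and 8 of 15, with exact intervals of 61.1% to 86.7% against 4.3% to 48.1% in males and 25.2% to 53.8% against 26.6% to 78.7% in testes. The intervals for males did not overlap and those for testes did. miR-1-3p gave 7 of the 49 forms and 6 of the 37 in males, so most of the 37 came from other names. Counted by name, the intervals for males overlapped. Since the forms are not independent, the gap between forms was not read as a difference between the tissues.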

How the data were processed

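Small RNA of 12-day-old adults was sequenced in 4 libraries, with 1 library per group. The authors matched cleaned reads to miRBase and deposited for each library a list of names, sequences, lengths (nt), hairpin positions (bases) and a miRBase status, and the labels name ACGT101-miR 4.2. The genome build is not given in the sources used here. Entries of status New were left out, as were exact duplicate rows, 2 in each list. Copy numbers in names were merged. A form is a distinct sequence, a seed is bases 2 to 8, and forms were aligned without gaps. Amounts and depth per entry were not analysed here, so no limit for a single miRNA is given. Intervals are 95% exact (Clopper-Pearson).

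The members and the lists of groups were chosen with earlier results of these data known. Named were all miRNAs of 1 list, shared names with the most forms, with differing seeds or with differing arms, and the members of the groups. The 4 forms listed in both female libraries and no male library, and the neighbours within 10000 bases, were chosen after their values were seen. Alternatives changed the entries used, the name and the identity of forms. The table of predicted miRNAs, which covers the 4 libraries combined, was not used, and targets were not analysed here. Python 3.11.15, pandas 2.3.3, numpy 2.4.6, scipy 1.17.1 and matplotlib 3.10.9 were used, and the functions were tested on made-up cases, of which 28 of 28 passed.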

Additional observations from a re-analysis of the deposited data

Results flagged for a closer look

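The entries marked New were outside the comparison. They gave 11 names in the female body that the ovaries lacked and 10 in the ovaries that the female body lacked, with 9 in both. They were looked at because they are a signal in entries that the comparison does not use. The 11 were mir-1-p5, mir-124-p5, mir-14-p3, mir-219-p3, mir-307b-p5, mir-315-p3, mir-3352-p5, mir-4944-p5, mir-4974-p3, mir-79-p3 and mir-9891-p3. The 10 were lin-4-p5, mir-2498-p5, mir-279-p5, mir-311-p3, mir-318-p5, mir-4939-p3, mir-54b-p3, mir-6-3-p5, mir-71a-p5 and mir-978-p3. The 9 in both were mir-1-p3, mir-12-p3, mir-14-p5, mir-184-p5, mir-240-p5, mir-263a-p3, mir-4982-p3, mir-983-1-p3 and mir-994-p3. By form, 8 were in both, 13 in the female body alone and 15 in the ovaries alone.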

How the results depend on the processing

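Of 70 values under 10 alternatives, 49 stayed within 1.5 times the count (or, for a share, within its interval) and 21 moved. With only Yes entries, 47 names were shared, 5 were in the female body alone and 3 in the ovaries alone, the forms were 47, 5 and 3, 3 names of the female body alone were in males, 2 of the ovaries alone were in testes, and 8 hairpins had both arms in each list. By family, 9 were in the female body alone and 5 in the ovaries alone, of which 6 were in males and 2 in testes. With entries marked New, the ovaries alone had 18 names and 30 forms, of which 30% had 21 to 23 bases. On contigs only, 3 names were in the ovaries alone, 2 of them in testes, and 30 and 7 forms were in the female body and the ovaries alone. Exact names, joined arms, merged forms and 1 vote per name moved nothing, nor did counting a contained form under another name, an alternative chosen after the data were seen. With 1 library a side no library could be left out. No paired analysis was possible because each group had 1 library. The ovary library had fewer clean reads, and their part in these counts was not tested.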
